A study of Mus musculus with 4 samples.

Results

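Among luminal cells of the LATS1/2-KO mammary gland, 1564 cells carried *Krt14* transcripts without any *Krt5*, *Trp63* or *Col17a1* transcript, and 2022 cells of the same kind carried no *Krt14* transcript. These 3586 cells, called Krt14-gaining and Krt14-free below, were taken from 18200 cells that passed quality limits in the whole series, out of 20324 barcodes. A cell entered the luminal gate with more than 500 detected genes, under 20% mitochondrial unique molecular identifiers (UMIs, the counted molecules), at least 20 *Krt8* plus *Krt18* UMIs per 10000 UMIs of the cell, no *Krt5*, *Trp63*, *Col17a1* or *Ptprc* UMI, and under 0.5% of its UMIs from *Col1a1*, *Col1a2* and *Col3a1*. A gaining cell also had at least 5 *Krt14* UMIs and at least 10 *Krt14* UMIs per 10000. The gate held 3107 cells of KO replicate 1 and 2763 cells of KO replicate 2.

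The series held 4 single-cell libraries of live-sorted mammary cells, each from the third to the fifth gland pairs of 1 adult nulliparous mouse. Both KO mice carried floxed *Lats1* and *Lats2* alleles on both chromosomes, a Rosa26 loxP-stop-loxP EYFP reporter and the Krt8-CreERT2 driver, while both CTL mice had the floxed alleles and the reporter without Cre. KO replicate 1 and the CTL mice were heterozygous for the reporter and KO replicate 2 was homozygous. All 4 mice, CTL included, received 2 mg tamoxifen on 5 days and were sampled 7 days after the last dose. Cre is driven by the *Krt8* promoter, and a cell without an EYFP UMI is not shown to lack recombination.

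The mammary duct has an inner layer of luminal cells, marked by keratins 8 and 18, and an outer layer of contractile basal cells, marked by keratins 5 and 14 and dependent on the transcription factor p63. The kinases LATS1 and LATS2 form the last step of the Hippo pathway and phosphorylate the coactivators YAP and TAZ, which holds them out of the nucleus. When these kinases are missing, YAP and TAZ bind TEAD transcription factors at genes for matrix, cytoskeleton and growth.

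*Krt14* (ENSMUSG00000045545) chose the cells, so its values are a description. Gaining cells made up 29.3% of gated cells in KO replicate 1 (909 of 3107, exact Clopper-Pearson 95% interval 27.7 to 30.9%) and 23.7% in KO replicate 2 (655 of 2763, 22.1 to 25.3%). The intervals here cover counting error only. In the CTL gate, 1 of 4129 cells of replicate 1 met the *Krt14* limits and 0 of 3056 cells of replicate 2 did, where 3 cells would make 0.0982%. The gaining cells held a median of 33 and 35 *Krt14* UMIs in KO replicates 1 and 2, with 10th percentiles of 10 and 10 and 90th percentiles of 103 and 110. Summed *Krt14* stood at 3459 and 3103 CPM (library-size scaled UMI counts) in gaining cells, beside 3106 and 2923 CPM in KO basal cells of the same libraries. At the edge of the limits, the lowest gaining cells stood at 5 UMIs and 10.01 and 10.03 per 10000, while 236 and 265 cells with 5 or more UMIs fell outside through the limit per 10000. Another 1272 and 1012 cells had *Krt14* UMIs below the limits and entered neither side.

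Free RNA was measured in cells that should lack *Krt14*. Of the leukocytes in the KO libraries, 33.1% and 26.9% had at least 1 *Krt14* UMI at median depths of 4685 and 3483 UMIs, but 1.57% and 1.97% met the gaining limits. Endothelial cells met them in 0 of 188 and 2 of 260 cells. In the KO gate 70.2% and 60.3% of cells had at least 1 *Krt14* UMI. Cells with *Krt14* below the limits may hold free RNA and are used as a description only. Without the limit on basal transcripts, the gate would have held 143 and 97 more gaining cells, 13.6% and 12.9% of that larger number. Barcodes shared between any pair of libraries numbered 4 to 17, at most 0.344% of a library.

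The sides differed in depth, reporter and cell cycle, and these differences stand beside every result that follows. Gaining cells had median depths of 13172 and 15035 UMIs and 3650 and 3932 genes, against 5292 and 5698.5 UMIs and 2048 and 2154 genes in free cells. Summed, the gaining sides held 13138997 and 10956728 UMIs and the free sides 5632740 and 7621932. The luminal keratins themselves, which the gate used, stood at a median of 156 and 157 per 10000 in gaining cells and at 89.5 and 79.0 in free cells.

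The EYFP reporter marked the gaining side more often. At least 1 EYFP UMI was found in 46.5% of gaining cells (423 of 909) and 7.45% of free cells (69 of 926) in KO replicate 1, and in 61.2% (401 of 655) and 11.3% (124 of 1096) in KO replicate 2. With every cell thinned to 2000 UMIs the shares were 20.4% and 3.66% in replicate 1 and 30.5% and 6.02% in replicate 2, over the 900 and 646 gaining and 764 and 930 free cells that reached this depth. In cells drawn at matched depth, 464 per side in replicate 1 and 396 per side in replicate 2, the difference was 27.8 and 37.9 percentage points. KO basal cells, defined by at least 2 *Krt5* UMIs with *Trp63* or *Col17a1*, had an EYFP UMI in 3.18% and 5.65% of cells. Summed EYFP transcript stood at 20.8 and 47.1 CPM in free cells and at 156 and 255 CPM in gaining cells of replicates 1 and 2, a log2 difference of 2.63 (SE 0.14, adjusted p = 3.8e-05, edgeR's quasi-likelihood test). With 2 mice, shares were compared without a p-value.

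Gaining cells held UMIs of cell cycle genes more often. At least 3 UMIs of the G2/M list, genes of late cell division, were found in 78.7% and 70.5% of gaining cells and in 35.4% and 30.8% of free cells of KO replicates 1 and 2. Thinned to 2000 UMIs, the shares were 43.2% and 31.1% against 9.42% and 6.99%. At matched depth the difference shrank to 15.3 and 5.05 percentage points. All 33 tested G2/M genes and 26 of 29 S phase genes were higher in the gaining sums, with median log2 differences of 1.86 and 1.24, where 23.2% of all genes tested were higher. At matched depth 21 of 33 and 9 of 29 were higher, with medians of 0.65 and 0.40, beside 28.5% of all genes called in either direction. In EYFP+ cells at matched depth 1 of 30 G2/M genes and 0 of 24 S phase genes were called higher by edgeR, with medians of 0.06 and 0.10. *Plk1*, a mitotic kinase, stood at 5.33 and 7.35 CPM in free cells and at 33.0 and 32.7 CPM in gaining cells. *Rrm2*, a subunit of ribonucleotide reductase, stood at 13.0 and 12.7 CPM against 64.5 and 52.2 CPM. Neither gene's sides overlapped, and *Rrm2* turned to a log2 difference of -0.25 when cells with G2/M UMIs were left out of both sides.

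**Figure D1:**
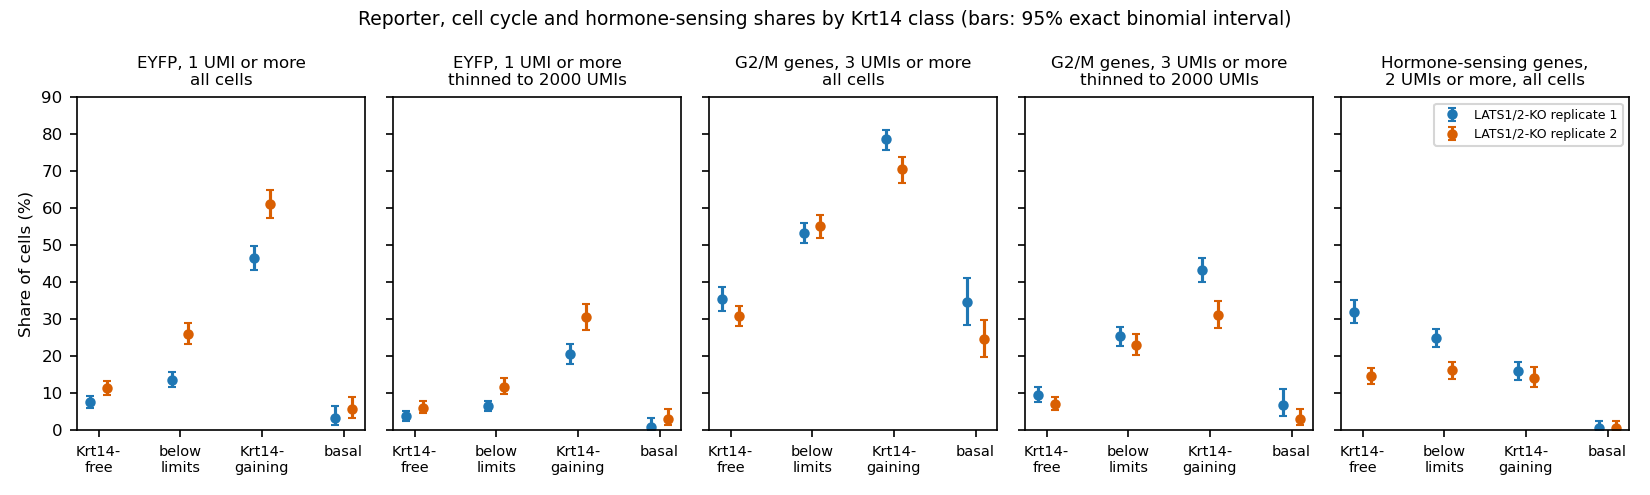
Share of cells (percent, y axis) with EYFP, G2/M or hormone-sensing UMIs in 4 classes of KO cells (x axis), for KO replicate 1 (blue) and KO replicate 2 (orange). Points are single libraries and bars are exact 95% binomial intervals. The reporter share was 7.45% and 11.3% in Krt14-free cells and 46.5% and 61.2% in Krt14-gaining cells, and thinning to 2000 UMIs lowered the levels but kept that order.

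The transcriptomes were then compared by summing each side within each mouse, with the mouse as a block. Of 12428 genes tested outside those the gate used, 5845 differed at an adjusted p under 0.05 (47% of genes tested), 2886 higher (23.2%) and 2959 lower (23.8%) in gaining cells, and 4166 of them by at least 0.6 on the log2 scale. For 9111 genes, 73.3%, the values of the sides did not overlap, so a single gene without overlap is the usual case here. All 5845 called genes differed in the same direction in both mice. The median over all tested genes was -0.01. Counts of list members below are to be set beside the shares over all genes tested, 23.2% higher and 23.8% lower. At matched depth 3216 genes were called (28.5% of those tested), and 2912 of these were called in all cells with the same direction. Counts at matched depth are to be set beside that 28.5%, which holds both directions.

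**Figure D2:**
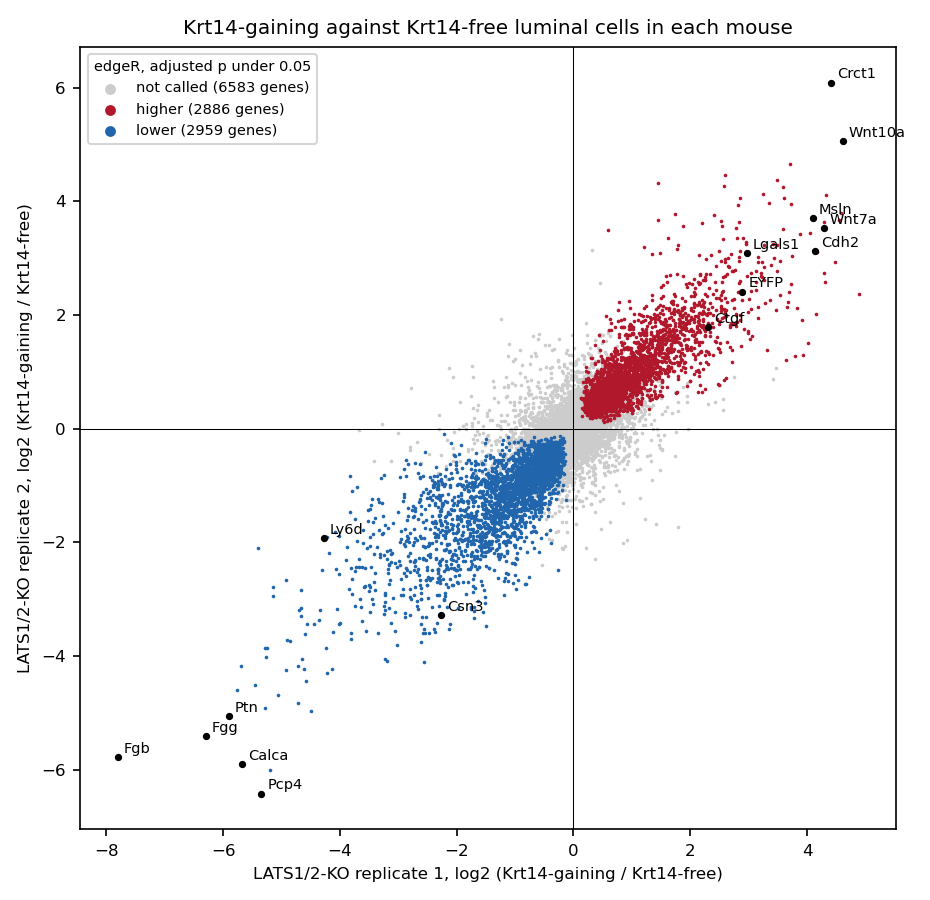
log2 ratio of summed CPM between Krt14-gaining and Krt14-free cells in KO replicate 1 (x axis) and KO replicate 2 (y axis), 1 point per gene. Red genes were called higher and blue genes lower by edgeR, grey genes were not called, and black points are named genes. *Crct1* and *Wnt10a* lie at the upper right and *Fgb*, *Pcp4* and *Calca* at the lower left.

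Targets of YAP and TAZ were mostly higher in gaining cells. Of 25 tested members 15 rose, 3 fell and 7 did not pass the test, with a median log2 difference of 1.19. Over all genes tested 23.2% were higher and 23.8% lower. *Ankrd1*, an ankyrin repeat protein and common readout of YAP and TAZ, stood at 75.5 and 112 CPM in free cells and at 483 and 401 CPM in gaining cells of KO replicates 1 and 2 (log2 2.24, SE 0.19, adjusted p = 0.00017). *Ctgf*, a secreted matrix protein, stood at 165 and 363 CPM against 818 and 1273 CPM (2.05, SE 0.13, adjusted p = 5.4e-05). The LIM protein gene *Ajuba* stood at 13.3 and 13.4 CPM against 54.5 and 60.0 CPM (2.09, SE 0.13, adjusted p = 5.9e-05). For each of these the gaining sums lay above both free sums. *Cyr61*, the other classic matricellular target, did not pass the test at 619 and 946 CPM against 910 and 922 CPM (0.25, adjusted p = 0.17), and its sides overlapped. At matched depth it was called, at 0.49 (adjusted p = 0.0123). *Gadd45a*, a stress and growth-arrest gene on the same list, fell from 147 and 123 CPM to 41.4 and 39.6 CPM (-1.74, SE 0.11). In CTL gated cells *Ctgf* was at 10.2 and 6.25 CPM and *Ankrd1* at 3.11 and 0.54 CPM, below the free cells of both KO mice, a difference that was not tested.

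Within the Hippo list 4 of 18 members rose, 4 fell and 10 did not pass, shares near those over all genes tested (23.2% higher and 23.8% lower). *Lats1*, one of the deleted genes, was at 24.9 and 24.3 CPM in free cells and at 9.21 and 11.8 CPM in gaining cells (-1.24, SE 0.17, adjusted p = 0.0012), while *Lats2* was at 25.6 and 31.4 CPM against 30.7 and 29.9 CPM (0.08, adjusted p = 0.67). Reads from the 3′ end can come from a transcript that lacks the floxed exons, so these levels do not measure deletion. *Tead1*, of the TEAD family, stood at 64.6 and 71.4 CPM against 170 and 177 CPM (1.34, SE 0.10, adjusted p = 9.9e-05), *Tead4* at 12.1 and 10.5 against 17.0 and 15.8 CPM (0.53, adjusted p = 0.035), and *Tead3* at 19.0 and 16.9 against 12.3 and 12.3 CPM (-0.55, adjusted p = 0.027). *Tead2*, whose symbol is listed more than once and is uncertain, was at 61.6 and 46.3 against 45.0 and 39.0 CPM (-0.36, adjusted p = 0.035). *Yap1* fell slightly (-0.33, adjusted p = 0.046) and *Wwtr1*, which encodes TAZ, did not pass (-0.28, adjusted p = 0.073). The TEAD cofactor *Vgll3* rose from 3.20 and 4.99 CPM to 19.9 and 33.2 CPM (2.68, SE 0.19).

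The promoters of 3 risen targets are shown because they hold the letters CATTCC, or GGAATG on the other strand, which form the core of the TEAD binding motif. Each run is the 250 bases before the RefSeq start on GRCm38.p6, written 5′ to 3′ on the gene's strand, with the motif in capitals. Windows that touched an annotated exon are not shown.
*Ajuba* (chr14:54577662-54577911, minus strand): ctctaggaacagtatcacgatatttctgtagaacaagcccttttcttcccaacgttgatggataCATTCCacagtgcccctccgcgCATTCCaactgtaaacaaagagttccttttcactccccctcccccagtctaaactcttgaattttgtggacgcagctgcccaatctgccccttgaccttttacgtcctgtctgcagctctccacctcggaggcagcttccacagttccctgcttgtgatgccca
*Axl* (chr7:25788734-25788983, minus strand): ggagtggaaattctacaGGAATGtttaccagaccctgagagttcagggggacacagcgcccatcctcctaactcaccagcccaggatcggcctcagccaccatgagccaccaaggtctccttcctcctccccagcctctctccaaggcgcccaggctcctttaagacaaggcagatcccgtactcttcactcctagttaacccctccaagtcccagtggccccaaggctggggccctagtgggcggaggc
*Ptpn14* (chr1:189728018-189728267, plus strand): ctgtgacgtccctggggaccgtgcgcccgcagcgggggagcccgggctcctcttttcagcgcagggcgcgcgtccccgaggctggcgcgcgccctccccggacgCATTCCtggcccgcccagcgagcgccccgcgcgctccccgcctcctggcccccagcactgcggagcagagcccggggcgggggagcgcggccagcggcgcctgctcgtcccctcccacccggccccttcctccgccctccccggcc
The first letter of the motif lay 186 and 164 bases before the start in *Ajuba*, 233 in *Axl* and 146 in *Ptpn14*. *Axl*, a receptor tyrosine kinase, stood at 8.34 and 8.92 CPM in free cells and 30.0 and 26.2 CPM in gaining cells, and the phosphatase gene *Ptpn14* at 10.5 and 11.8 against 32.9 and 43.2 CPM. Of the 26 listed targets 17 matched the promoter table and 6 of these held the letters (35.3%), all 6 among the 10 matched of the 15 risen targets, against 12.8% of 9405 matched genes among all genes tested and 12.7% of 2212 matched genes called higher. A match in this window is a description of the letters, not a binding site.

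Other keratins were also compared. Of 11 tested keratins outside the gate 5 rose, 4 fell and 2 did not pass, with a median of 0.33. Among all genes tested 23.2% were higher and 23.8% lower. At matched depth 5 of 9 rose and 2 fell, with a median of 1.07, where 28.5% of all genes were called. Without hormone-sensing cells 7 of 10 rose and 1 fell, with a median of 1.23, where 54.6% of all genes were called. *Krt17*, a basal and stress keratin, stood at 49.7 and 29.3 CPM in free cells and at 141 and 167 CPM in gaining cells (1.99, SE 0.22, adjusted p = 0.00048), far below the 1511 and 1188 CPM of KO basal cells. *Krt6a*, a keratin of hyperproliferative epithelium, stood at 27.9 and 8.79 CPM against 83.7 and 58.3 CPM (2.07, SE 0.24). *Krt7*, a simple-epithelium keratin, stood at 715 and 554 CPM against 2074 and 2285 CPM (1.78, SE 0.12). The luminal keratin *Krt19* fell from 3590 and 1736 CPM to 1534 and 1351 CPM (-0.81, SE 0.17), and *Krt15*, another keratin of stratified epithelium, was at 3.02 and 2.36 CPM against 0.152 and 0.274 CPM, from 17 and 18 UMIs against 2 and 3.

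Genes of basal adhesion and matrix were mostly higher. Of 21 tested adhesion and matrix genes of basal cells 15 rose and 4 fell, with a median log2 difference of 1.13. *Nrg1*, a ligand of ERBB receptors, stood at 2.84 and 1.84 CPM in free cells and at 23.6 and 20.1 CPM in gaining cells (3.23, SE 0.22, adjusted p = 8.3e-05). *Lama3*, a laminin chain of hemidesmosomes, stood at 4.97 and 2.76 CPM against 24.5 and 18.2 CPM (2.48, SE 0.21), and the integrin gene *Itga3* at 39.1 and 50.8 against 199 and 211 CPM (2.19, SE 0.12). *Itgb1*, the shared integrin beta chain, stood at 379 and 352 against 706 and 668 CPM (0.90, SE 0.08). P-cadherin, *Cdh3*, rose from 0.533 and 0.525 to 3.81 and 4.29 CPM, where KO basal cells had 131 and 123 CPM.

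None of the 12 tested basal transcription factors rose, and 9 fell, with a median of -1.01. At matched depth 5 of 10 fell and none rose, with a median of -0.56, where 28.5% of all genes were called. Without hormone-sensing cells at matched depth 1 of 9 rose and 7 fell, where 4041 of 10531 genes tested were called. The gate had removed cells with *Krt5*, *Trp63* or *Col17a1*. These were 13.6% and 12.9% of gaining and 4.83% and 3.18% of free cells, and their part in this list was not tested. *Sox10* fell from 45.6 and 65.9 CPM to 22.1 and 23.1 CPM (-1.29, SE 0.15), *Runx1* from 333 and 343 to 165 and 138 CPM, and *Egr2* from 13.0 and 32.3 to 2.89 and 4.65 CPM. *Id4* did not pass at -0.95, and *Snai2* was too low to test, at 0.533 and 0.787 CPM against 57.1 and 45.2 CPM in KO basal cells. *Runx1* and *Sox10* are also expressed in luminal progenitor cells.

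Of 14 contractile genes of myoepithelium 6 were higher and 6 lower in all cells, with a median of 0.06. The shares over all genes tested were 23.2% and 23.8%. At matched depth 5 of 10 were higher and 1 lower, with a median of 1.26, where 28.5% of all genes were called. *Acta2*, smooth muscle actin, stood at 32.0 and 43.2 CPM in free cells and at 120 and 180 CPM in gaining cells (1.98, SE 0.11, adjusted p = 3.9e-05), against 2051 and 2580 CPM in KO basal cells. The tropomyosin gene *Tpm2* stood at 83.6 and 85.7 against 263 and 309 CPM (1.74, SE 0.10). *Mylk* and *Myh11*, which encode the kinase and heavy chain of smooth muscle contraction, were under 8 CPM on both sides and fell, and *Cnn1* was at 6.16 and 4.93 CPM in gaining cells against 47.2 and 82.9 CPM in KO basal cells.

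**Figure D3:**
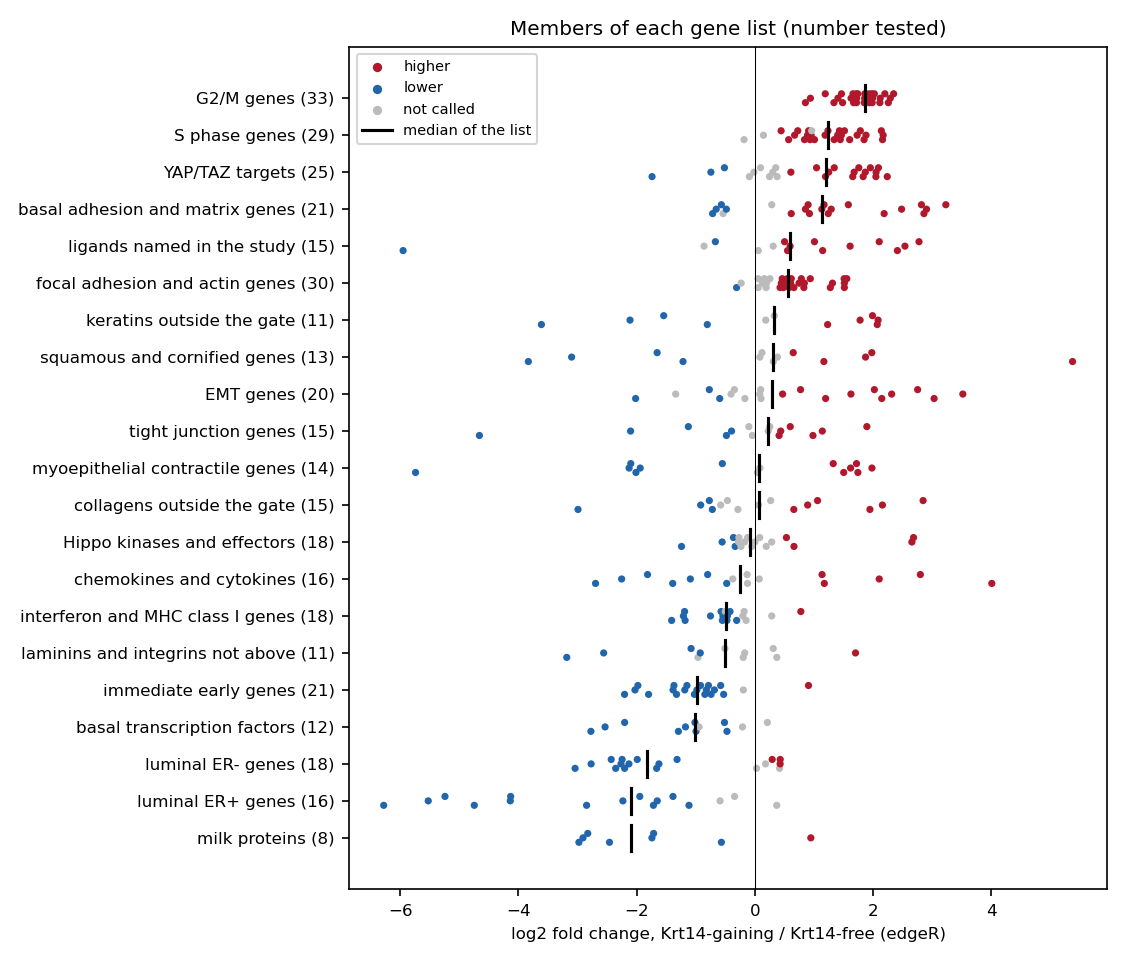
log2 difference between Krt14-gaining and Krt14-free cells (x axis, edgeR) for each tested member of 21 gene lists (y axis, number tested in brackets). Red members were called higher, blue lower and grey not called, and black bars mark list medians, which run from 1.86 for G2/M genes to -2.10 for milk proteins.

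Genes of the ER- luminal branch were mostly lower in gaining cells. The general luminal markers were split, with 4 of 8 lower, 2 higher and a median of -0.28. Of 18 tested genes of the ER- luminal lineage, the alveolar progenitor branch, 12 fell, 3 rose and 3 did not pass, with a median of -1.83. *Csn3*, kappa casein, stood at 1432 and 2175 CPM in free cells and at 298 and 227 CPM in gaining cells (-2.77, SE 0.22, adjusted p = 0.00013). *Kit*, the receptor that marks luminal progenitors, stood at 136 and 253 against 57.3 and 98.4 CPM (-1.32, SE 0.10). *Elf5*, the master transcription factor of the alveolar lineage, stood at 82.9 and 146 against 37.5 and 32.9 CPM (-1.66, SE 0.22). *Trf*, transferrin, fell from 245 and 644 to 40.0 and 59.7 CPM (-3.04, SE 0.19). *Aldh1a3*, a retinal dehydrogenase of luminal progenitors, was a member that rose, from 152 and 143 to 181 and 183 CPM (0.29, adjusted p = 0.035). Milk protein genes followed, with 7 of 8 lower and *Btn1a1* higher. At matched depth 12 of 18 ER- genes were still lower, with a median of -1.57, where 28.5% of all genes were called.

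Genes of the hormone-sensing branch were also lower. Of 16 tested ER+ genes 13 fell and none rose, with a median of -2.09. *Pgr*, the progesterone receptor, stood at 43.5 and 12.3 CPM in free cells and at 1.29 and 0.73 CPM in gaining cells (-4.75, SE 0.28). *Areg*, an EGFR ligand made under estrogen, stood at 1448 and 438 against 59.8 and 35.9 CPM (-4.13, SE 0.22). Cells with at least 2 UMIs over *Esr1*, *Pgr*, *Prlr* and *Cited1* made up 32.0% of free and 15.8% of gaining cells in KO replicate 1. In KO replicate 2 they made up 14.5% and 14.2%. These shares were not thinned, and gaining cells were deeper. All gaining cells of KO replicate 2 together held 10 *Cited1* UMIs, so gaining cells over this limit need not be of the hormone-sensing branch. Results without hormone-sensing cells leave out the cells over this limit. With those cells left out of both sides 3 of 11 tested ER+ genes rose and 3 fell, with a median of 0.09, but the removal used members of that list, so this count is a description. In the same cells, where 54.6% of all genes tested were called, 12 of 18 ER- genes fell and 2 rose, with a median of -2.05.

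The largest falls included a fibrinogen chain and peptide and growth factor genes. *Fgb*, a fibrinogen chain, went from 132 and 16.5 CPM to 0.381 and 0.0913 CPM (-8.24, SE 0.25), on 746 and 126 UMIs against 5 and 1. *Calca*, the calcitonin and CGRP gene, went from 108 and 55.8 to 1.90 and 0.73 CPM (-5.95, SE 0.18). *Ptn*, the growth factor pleiotrophin, went from 1292 and 172 to 21.4 and 5.02 CPM (-5.63, SE 0.19). For each of them both gaining sums lay below both free sums. Without the hormone-sensing cells *Ptn* stood at -0.98, *Pcp4*, a calmodulin-binding peptide gene, moved from -5.74 to -1.96, and *Calca* lost its call at -1.19.

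The largest rises included a cornified envelope gene, Wnt ligands and a transcription factor. *Crct1*, a cysteine-rich protein of the epidermal cornified envelope, went from 6.04 and 3.80 CPM to 132 and 277 CPM (5.37, SE 0.31, adjusted p = 4.8e-05). *Wnt10a*, a Wnt ligand of skin appendages, went from 1.07 and 0.525 to 31.0 and 24.9 CPM (5.15, SE 0.27), and *Wnt7a* from 1.78 and 3.41 to 38.6 and 42.3 CPM (3.91, SE 0.22). *Sox11*, a transcription factor of embryonic tissue, went from 9.94 and 16.7 to 135 and 140 CPM (3.35, SE 0.17). *Igfbp2*, an IGF-binding protein, was the most abundant of them, at 293 and 421 CPM in free cells and 3305 and 4008 CPM in gaining cells (3.36, SE 0.09). *Msln*, the surface protein mesothelin, stood at 17.9 and 26.5 against 311 and 353 CPM (3.90, SE 0.13). In CTL gated cells *Crct1*, *Wnt10a* and *Wnt7a* were at 0 CPM in both mice, and *Igfbp2* was at 0.265 and 0.206 CPM.

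The cornified list as a whole did not move together. In all cells 5 of 13 tested members were higher and 4 lower, beside 23.2% and 23.8% of all genes tested. At matched depth 5 were higher and 2 lower, where 28.5% of all genes were called. *Ly6d*, a GPI-anchored protein, fell from 931 and 310 CPM to 47.9 and 82.4 CPM, and *Sprr1a*, an envelope precursor, from 92.3 and 22.8 to 1.98 and 5.20 CPM. *Sprr1a* turned to a log2 difference of 1.75 without the hormone-sensing cells. The luminal states that earlier results of these data had named, 10 tested genes with *Crct1* and *Msln* among them, had 7 higher and 2 lower, which is not independent evidence.

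Vimentin and fibronectin rose, and so did E-cadherin. Of 20 genes of the epithelial-mesenchymal list 10 rose, 3 fell and 7 did not pass, with a median of 0.29. Over all genes tested 23.2% rose and 23.8% fell. At matched depth 11 of 18 rose and 1 fell, with a median of 0.98, where 28.5% of all genes were called. *Vim*, vimentin, stood at 186 and 117 CPM in free cells and at 1174 and 850 CPM in gaining cells (2.75, SE 0.09, adjusted p = 1e-05). *Lgals1*, galectin 1, went from 216 and 173 to 1689 and 1500 CPM (3.03, SE 0.08), and N-cadherin, *Cdh2*, from 1.95 and 5.77 to 37.8 and 52.6 CPM (3.52, SE 0.24). *Fn1*, fibronectin, stood at 52.7 and 36.7 against 251 and 194 CPM (2.31, SE 0.10). E-cadherin, *Cdh1*, also rose, from 232 and 246 to 309 and 357 CPM (0.47, adjusted p = 0.0045), while *Epcam* fell from 2639 and 2450 to 1854 and 1550 CPM. The transcription factors *Snai1*, *Twist1* and *Zeb1* did not pass the test and *Zeb2* fell at 20.2 and 12.2 CPM against 3.04 and 4.93 CPM. KO leukocytes held 519 and 564 CPM of *Zeb2* and CTL gated cells 0.338 and 0.515 CPM. The part of leukocyte RNA in this fall was not tested.

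Actin and focal adhesion genes rose in 21 of 30 cases and fell in 1, with a median of 0.56. *Actn1*, an actin crosslinker, stood at 216 and 222 CPM in free cells and at 622 and 637 CPM in gaining cells (1.51, SE 0.08), and the actin-binding *Cnn2* at 66.0 and 79.5 against 198 and 232 CPM (1.55, SE 0.10). *Col18a1*, a collagen of basement membrane, rose from 11.9 and 10.2 to 55.9 and 44.1 CPM. *Col8a1*, a collagen of vessel wall, rose from 4.62 and 2.62 to 29.0 and 22.5 CPM. Of 15 tested collagens 6 rose and 4 fell, beside 23.2% and 23.8% of all genes tested. At matched depth 7 of 14 collagens rose and 1 fell, where 28.5% of all genes were called. Among 11 further laminins and integrins *Lamb1* rose in all cells, at 28.8 and 25.8 against 85.8 and 92.7 CPM, and 4 fell. At matched depth 3 of 10 rose and 1 fell, beside the same 28.5% of all genes.

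Secreted signals named in the study rose in 10 of 15 tested cases and fell in 2. The study chose this list on these samples, so its direction is not independent evidence. The study also reported PDGF and TGF-β ligands and *Csf1* as higher in KO by RNA sequencing of sorted EYFP+ cells. It reported *Tgfb2*, *Pdgfa*, *Pdgfb* and *Csf1* as higher by RNAscope. Those measurements compared KO with control glands, not Krt14-gaining with Krt14-free cells. *Csf1*, the macrophage growth factor, stood at 17.8 and 33.6 CPM in free cells and at 121 and 149 CPM in gaining cells (2.41, SE 0.16, adjusted p = 7e-05). *Sema3c* and *Sema3e*, secreted guidance cues, stood at 29.8 and 49.2 against 135 and 205 CPM (2.10, SE 0.11) and at 6.75 and 8.66 against 45.3 and 61.2 CPM (2.78, SE 0.15). *Pdgfb*, a mitogen of pericytes and fibroblasts, stood at 67.3 and 60.2 against 212 and 181 CPM (1.61, SE 0.10), and *Tgfb2* at 34.6 and 47.2 against 152 and 188 CPM (2.05, SE 0.11). *Tgfb1* fell from 43.5 and 38.3 to 27.6 and 24.2 CPM (-0.67, SE 0.12), and *Efnb1* did not pass at 0.31 (adjusted p = 0.079). Among 16 chemokines and cytokines 5 rose and 7 fell, beside 23.2% and 23.8% of all genes tested. *Ccl20* rose from 6 and 0 UMIs to 169 and 35 UMIs, and *Il34*, the other CSF1 receptor ligand, from 3.91 and 2.62 to 28.2 and 32.9 CPM (3.24, SE 0.23), while the neutrophil chemokine *Cxcl1* fell from 236 and 175 to 102 and 90.4 CPM.

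Immediate early genes were lower in gaining cells in 19 of 21 cases, with *Dusp1*, a phosphatase of MAP kinases, the member that rose. *Egr1* stood at 522 and 781 CPM in free cells and at 134 and 185 CPM in gaining cells (-2.03, SE 0.09, adjusted p = 2.4e-05), and *Jun* at 2173 and 1816 against 814 and 721 CPM (-1.38, SE 0.07). These genes are induced by tissue dissociation, and their part in other results was not tested. Interferon and MHC class I genes fell in 12 of 18 cases and rose in 1, with *H2-K1*, a class I heavy chain, at 1575 and 1317 against 910 and 816 CPM (-0.75, SE 0.07). Tight junction genes were split, 6 of 15 higher and 5 lower, beside 23.2% and 23.8% of all genes tested. At matched depth 6 were higher and 3 lower, where 28.5% of all genes were called. In all cells *Cldn6* was higher at 1.89 and *Cldn10* lower at -4.66.

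Levels followed the amount of *Krt14* in different ways. The gaining cells of each mouse were divided at their median *Krt14* level, and the values are a description. *Crct1* went from 72.9 and 74.1 CPM in the lower part to 192 and 499.5 CPM in the upper part in KO replicates 1 and 2, and *Krt6a* from 22.8 and 15.7 to 145 and 105 CPM. In free cells *Krt6a* stood at 27.9 and 8.79 CPM. *Ankrd1*, in contrast, was at 500.1 and 421 CPM in the lower part and at 466 and 379 CPM in the upper part. *Mki67*, the proliferation antigen, peaked in the lower part at 129 and 134 CPM and stood at 82.2 and 64.2 CPM in the upper part, against 32.7 and 31.5 CPM in free cells. *Kit* and *Elf5* were lowest in the upper part, at 35.6 and 63.8 CPM and at 26.3 and 26.4 CPM.

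**Figure D4:**
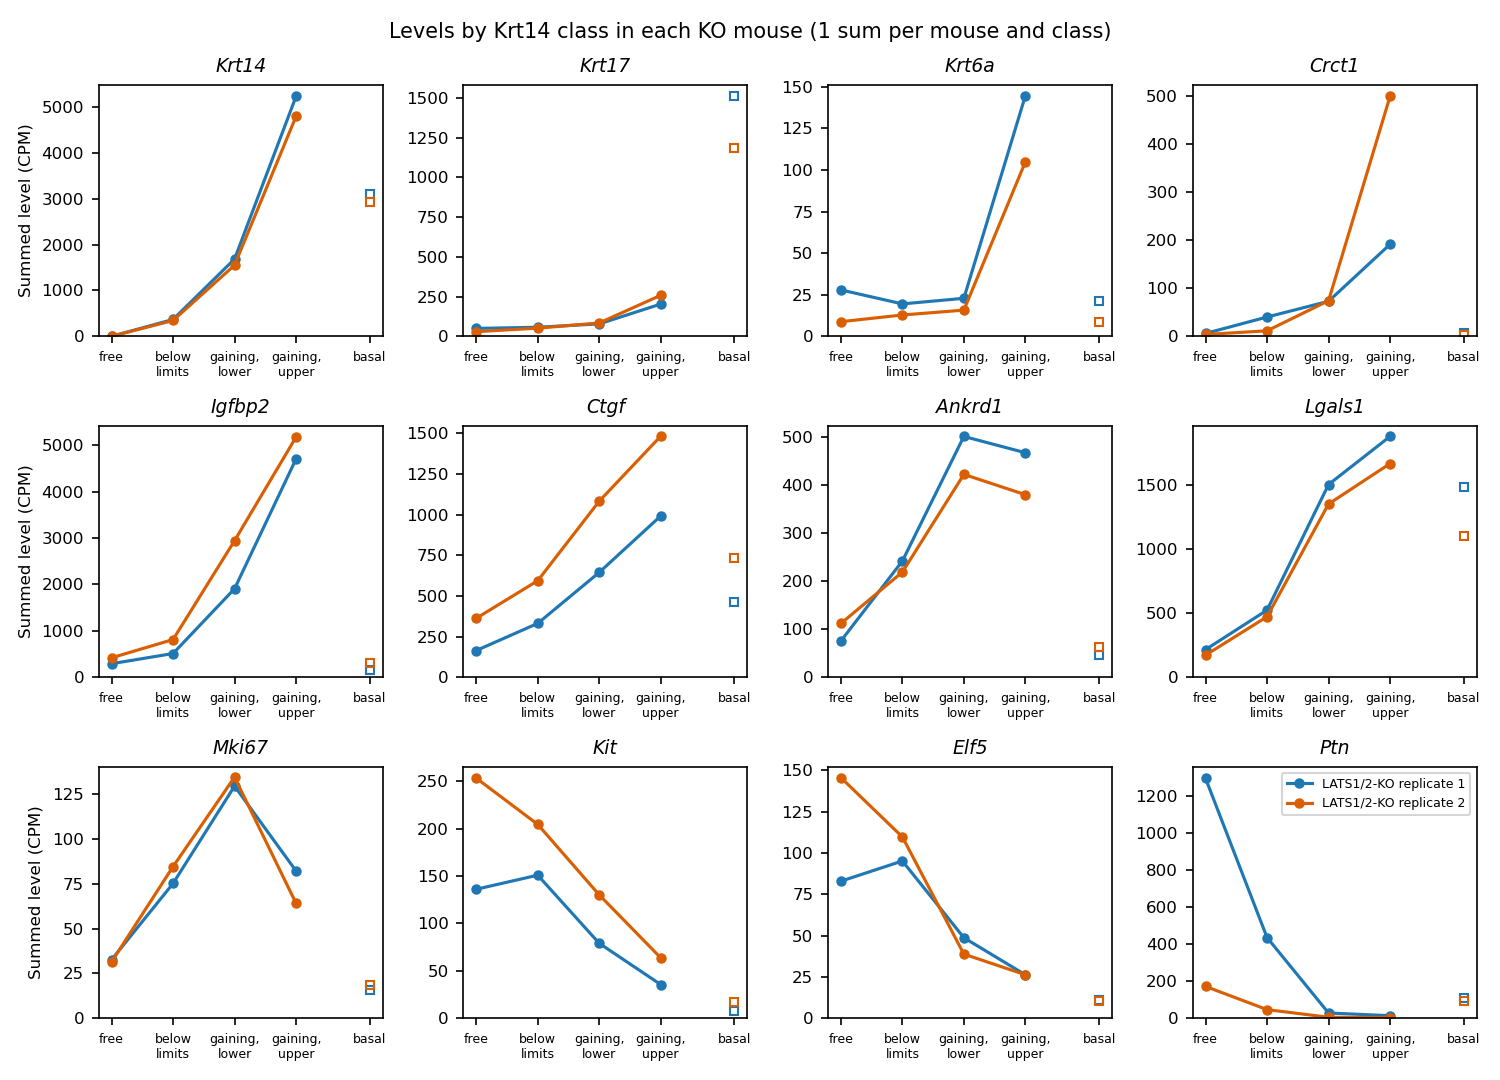
Summed level (CPM, y axis, linear) of 12 genes in Krt14-free cells, cells with *Krt14* below the limits, the lower and upper parts of the Krt14-gaining cells, and KO basal cells (x axis) for KO replicate 1 (blue) and KO replicate 2 (orange). *Crct1* and *Krt6a* are highest in the upper part, *Mki67* is highest in the lower part, and *Krt17* stays below its level in basal cells in each class.

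Reporter-positive and reporter-negative cells were compared next, since EYFP was more frequent on the gaining side. Restricted to EYFP+ cells, 423 and 401 gaining against 69 and 124 free cells, 2020 genes were called (18.2% of those tested), and 13 of 25 YAP/TAZ targets rose and 2 fell, with a median of 0.69. Restricted to EYFP- cells, 5130 genes were called (43.9%), and 16 of the 25 targets rose and 3 fell, with a median of 1.03. EYFP detection moves with depth, and at matched depth 13 of 22 targets rose and 1 fell in EYFP+ cells, with a median of 0.82 and 16.2% of all genes called. In EYFP- cells at matched depth 16 of 25 rose and 1 fell, with a median of 1.44 and 24.6% of all genes called. A test of the difference between the effects in EYFP+ and EYFP- cells, without depth matching, called 116 of 12116 genes, 0.957%. Of these genes 105 had the smaller value in EYFP+ cells. *Ctgf* differed by 2.27 between the sides in EYFP- cells and by 0.88 in EYFP+ cells (difference -1.39, adjusted p = 0.0017), and *Igfbp2* by 3.35 and 1.82 (difference -1.53, adjusted p = 0.0021).

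The levels show where these effects parted. *Ctgf* stood at 134 and 284 CPM in free EYFP- cells, at 415 and 778 CPM in free EYFP+ cells, at 766 and 1247 CPM in gaining EYFP- cells and at 865 and 1285 CPM in gaining EYFP+ cells. *Igfbp2* stood at 201 and 190, 1051 and 1636, 1786 and 2374, and 4657 and 4764 CPM in the same order. *Tead1* stood at 58.5 and 62.8, 115 and 117, 164 and 179, and 176 and 176 CPM. For these genes the free EYFP+ cells lay between the free EYFP- cells and the gaining cells in both mice. *Crct1* stood at 5.57 and 3.12 CPM in free EYFP- cells and at 9.84 and 7.40 CPM in free EYFP+ cells. Gaining EYFP- cells had 65.3 and 51.1 CPM of it and gaining EYFP+ cells 192 and 382 CPM. All free cells together held 34 and 29 *Crct1* UMIs, and KO endothelial cells stood at 7.63 and 4.26 CPM. The order of the free classes is therefore not resolved for *Crct1*.

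Transcripts of other cell types were counted in the gated sums. Of the fibroblast markers 9 of 10 were lower and 1 higher in gaining cells, with summed levels of 679 and 506 CPM in free and 406 and 528 CPM in gaining cells. Endothelial markers were lower in 5 of 6 cases, at 71.5 and 37.7 against 12.3 and 10.2 CPM, and myeloid markers in 7 of 8, at 195 and 112 against 45.7 and 65.3 CPM. Over all genes tested 23.8% were lower. At matched depth 2 of 9 fibroblast, 2 of 3 endothelial and 0 of 8 myeloid markers were lower, where 28.5% of all genes were called. *Sparc* and *Postn*, matrix genes of fibroblasts, were lower in all cells at -0.72 and -0.77 and stood at 0.03 and 0.19 at matched depth. Basal markers outside the gate summed to 194 and 152 CPM in free and 400.0 and 465 CPM in gaining cells. In all cells 6 of 11 were higher and 5 lower, beside 23.2% and 23.8% of all genes tested. At matched depth 5 of 8 were higher and none lower. The part of free RNA and of doublets in these values was not tested, and with the deepest 5% of gated cells left out 5471 genes were called.

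**Figure D5:**
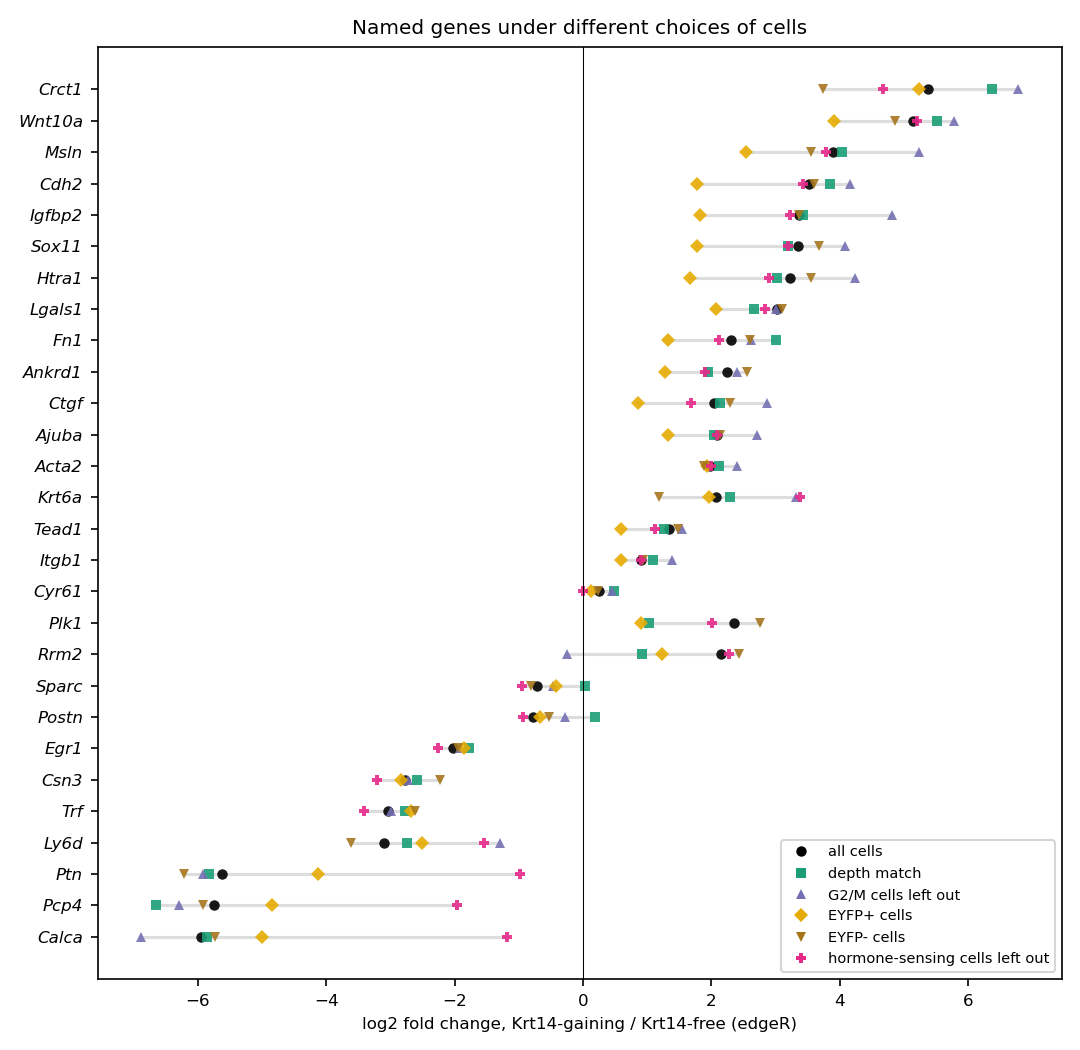
log2 difference between Krt14-gaining and Krt14-free cells (x axis, edgeR) for named genes (y axis) over all cells and under 5 choices of cells, shown by marker shape and colour. *Crct1*, *Wnt10a*, *Ankrd1*, *Ctgf* and *Csn3* keep their side of 0 under each choice shown, whereas *Ptn*, *Pcp4* and *Calca* approach 0 without the hormone-sensing cells and *Sparc*, *Postn* and *Rrm2* cross 0.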

How the data were processed

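The deposited matrices hold UMI counts per gene and barcode, which the authors made with Cell Ranger from 10x 3′ v3 libraries on mm10 with an EYFP entry. The submitters' processing notes give version 3.1.0 and the matrix headers give 6.1.2, and which of these made the counts could not be settled. No doublet caller was run. Levels are compared between groups within a gene, not between genes of different length. From the counts, cells were gated as described, and counts of each side were summed per mouse. The quasi-likelihood test of edgeR 4.0.16 was applied to the 4 sums, after filterByExpr and TMM scaling. The mouse was a block because both sides of a pair came from the same animal, which leaves 1 residual degree of freedom per gene, moderated across genes. P-values were adjusted by Benjamini-Hochberg over all tested genes. On simulated counts for this comparison over 12370 genes, 29.2% of genes changed by 0.5, 83.1% by 1 and 97.0% by 2 (log2) were recovered, and 3.52% of calls were false. The simulation changed 65 or 66 genes of each size, equally in both mice, at 1 common dispersion of 0.00966. In the data 47% of genes were called, so these rates need not hold for those calls. Standard errors were derived from edgeR's log2 difference and F statistic, and n is 2 mice. The p-values rest on how the difference between the sides varied between these 2 animals, and on the moderated dispersion. Genes that the gate used were not tested.

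The genes named are the 12 largest and 12 smallest log2 differences among called genes with an average log2 CPM of at least 4 and sides that do not overlap, the 2 largest and 2 smallest called members of each list, and the genes the study names. Other list members named were chosen after their values were seen. The members and gene lists were chosen with earlier results of these data known. Alternatives were DESeq2 1.42.0, RLE factors, no low-count filter, no block, leaving out a mouse, thinning, depth matching, EYFP and G2/M splits, hormone-sensing cells left out, and other limits of the gate. Promoter letters came from RefSeq (GRCm38.p6). *Tead2* is listed under more than 1 identifier and is uncertain.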

Additional observations from a re-analysis of the deposited data

Results flagged for a closer look

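The Krt14-gaining effect differed between EYFP+ and EYFP- cells for 16 named genes, by a test of the difference in edgeR over 8 sums. These sums came from the same 2 mice, with the mouse as a block, so n is 2 mice. The test was not run at matched depth. The log2 effect was smaller in EYFP+ cells for *Igfbp2* (-1.53), *Sox11* (-1.84), *Htra1* (-1.94), *Vgll3* (-1.88), *Tpm2* (-0.99), *Plk1* (-1.89), *Lamb1* (-1.39), *Cnn2* (-0.75), *Sema3e* (-2.21), *Ctgf* (-1.39), *Csf1* (-1.57), *Sema3c* (-1.60), *Fn1* (-1.26) and *Tead1* (-0.85), each given as EYFP+ minus EYFP-. It was more positive in EYFP+ cells for *Ptn* (2.16) and *Igfbp3* (2.43). *Igfbp3* stood at 18.1 and 23.0 CPM in free EYFP- cells and at 6.56 and 4.93 CPM in free EYFP+ cells. KO basal cells had 432 and 327 CPM of *Igfbp3* and KO endothelial cells 140 and 320 CPM. The part of free RNA in these low levels was not tested. The free EYFP+ sums came from 69 and 124 cells.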

How the results depend on the processing

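The count of 5845 called genes fell to 3164 with DESeq2, 3024 with thinned cells, 3216 at matched depth, 2985 without cells holding G2/M UMIs and 2020 in EYFP+ cells. With combinations chosen after the data were seen it was 2390 (no G2/M UMIs, matched depth), 1310 (EYFP+, matched depth) and 2569 (EYFP-, matched depth). Without the replicate block 4756 genes were called, each of them also called with it, and the EYFP log2 difference was 2.57. Leaving out a mouse leaves no test, and the EYFP log2 difference then ranged from 2.41 to 2.89. The EYFP share difference of 44.5 percentage points (39.1 to 49.9 over single mice) became 20.6 after thinning and 32.8 at matched depth. The cycling difference of 41.5 points (39.7 to 43.2) became 33.1 with a limit of 2 UMIs, 29.0 after thinning and 10.2 at matched depth. The gaining share of 26.5% (23.7 to 29.3%) became 19.1% with a limit of 20 *Krt14* UMIs and 65.3% with a limit of 1.

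Of 2112 values for 107 named genes with both mice, 1962 kept their direction and side of the threshold, 114 lost the call, 13 gained it and 23 turned. Signs turned at matched depth for *Igfbp3* (0.36), *Sparc* (0.032), *Postn* (0.19) and *Col5a2* (0.0047). They turned without hormone-sensing cells for *Krt79* (0.11), *Sprr1a* (1.75), *Cyr61* (-0.00542), *Lats2* (-0.046) and *Tead2* (0.19), and with matched depth added for *Igfbp3* (0.50), *Sprr1a* (3.17) and *Postn* (0.20). In EYFP+ cells *Igfbp3* (1.24) and *Lats2* (-0.067) turned, and at matched depth *Lurap1l* (-0.014), *Postn* (0.053) and *Col5a2* (0.026). In EYFP- cells at matched depth *Igfbp4* (0.18) and *Postn* (0.47) turned. Without G2/M cells *Rrm2* (-0.25) turned, and with matched depth *Igfbp3* (0.044) and *Postn* (0.17). *Lats2* turned in thinned cells (-0.035), and *Cyr61* (-0.056) and *Lats2* (-0.084) turned without KO replicate 1, against 0.55 and 0.26 without KO replicate 2. The causes were not tested. In the simulation 29.2% of genes changed by 0.5 on the log2 scale were recovered, and smaller changes were not simulated.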
